A study of Mus musculus with 7 samples.

Results

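The uptake of glucose and its conversion to lactate were examined through 10 genes, the glucose transporter Slc2a1 and the glycolysis enzymes Hk1, Hk2, Pfkl, Aldoa, Gapdh, Pgk1, Eno1, Pkm and Ldha. They were taken by name from the 25033 genes listed in each library, and all 10 were listed and passed the filter on low counts, with 13462 genes tested in all. The libraries were made from primary T-cells of mice of strain C57BL/6J aged 15 months, 3 WT and 4 ORP4L KI, with 1 library from each mouse. In ORP4L KI mice human ORP4L, an oxysterol-binding protein, lies with IRES-EGFP in the Rosa26 locus behind a stop cassette flanked by loxP sites, and the cassette is removed by Cre under the T-cell promoter Lck. WT mice were littermates, the ORP4L KI mice were sampled when moribund, and a difference in genotype and one in disease state cannot be told apart. T-cells came from blood mononuclear cells or splenocytes, with a kit for naive CD4+ T-cells, and were put in culture with IL-2 and PHA in the study's methods. Which source each library came from, and whether the sequenced cells had been cultured, is not given in the sources used here.

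Glycolysis splits 1 molecule of glucose into pyruvate in the cytosol, and lactate dehydrogenase turns pyruvate into lactate. Slc2a1 encodes GLUT1, which carries glucose across the plasma membrane, the hexokinases trap it as glucose 6-phosphate, and phosphofructokinase commits it to the pathway. Resting T-cells use little glucose, and activated or dividing T-cells raise glucose uptake and lactate output. Neutrophils also rely on glycolysis, so these genes are not particular to T-cells.

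Facts of the libraries touch every value that follows. Total counts ran from 12918187 to 15912921 in WT and from 16757959 to 19665679 in ORP4L KI. As a check of the labels, Osbp2 (the mouse ORP4L gene) was read 0, 0 and 1 times in the WT libraries, against 188, 742, 155 and 443 times with the knock-in. The labels held by this measure, although reads of the human transgene and of mouse Osbp2 cannot be told apart in these counts. All 12 T-cell markers had reads in every library and together took 0.211% to 0.327% of counts in WT. In ORP4L KI they took 0.123%, 0.456%, 0.293% and 0.284% for replicates 1, 2, 3 and 4. Of the 12, 8 had a log2 fold change above 0 and 4 below (median 0.11). The 14 granulocyte markers, none of them at 0 in any library, took 0.220% to 0.571% of counts in WT. Their share in ORP4L KI was 12.6%, 1.19%, 3.14% and 5.03% for replicates 1, 2, 3 and 4. By T-cell marker share the ORP4L KI libraries stood in the reverse order. All 14 granulocyte markers had a log2 fold change above 0 with a median of 4.21. Of these, 13 were above all WT libraries in every ORP4L KI library, beside 6.43% of all genes tested. The 15 proliferation markers took 0.0667% to 0.0988% of counts in WT and 0.111% to 0.185% in ORP4L KI, and 11 of 15 were higher at an unadjusted p under 0.05, beside 6.85% of all genes tested. None of the B-cell, monocyte and macrophage, dendritic cell, NK cell and platelet markers was at 0 in any library. The summed share of the B-cell markers was 0.0374% to 0.0627% in WT and 0.0218% to 0.0598% in ORP4L KI, that of the monocyte and macrophage markers 0.320% to 0.477% and 0.232% to 0.600%, and that of the 11 erythroid markers listed 1.09% to 1.86% and 0.127% to 0.861%. Of the 10 monocyte and macrophage markers, 2 had a log2 fold change above 0 and 8 below (median -0.78). By an unadjusted p under 0.01 with a log2 fold change over 1 in size, 1 of them rose and 2 fell, beside 2.38% and 2.30% of all genes. Of the 11 erythroid markers, 6 were above 0 and 5 below (median 0.09). None of the 11 passed that rule, and 5 were lower at an unadjusted p under 0.05 by edgeR, beside 6.86% of all genes. The 8 dendritic cell markers took 0.0568% to 0.0774% in WT and 0.0123% to 0.0271% in ORP4L KI, without overlap. All 8 had a log2 fold change below 0 (median -1.59), 7 fell by an unadjusted p under 0.01 with a log2 fold change over 1 in size, beside 2.30% of all genes, and 1 passed an adjusted p of 0.05 by edgeR. The 8 NK cell markers took 0.0714% to 0.0889% in WT and 0.0397% to 0.120% in ORP4L KI. By the same rule 4 of them fell and 0 rose (median of the 8, -1.05). The list was split, as 2 had a log2 fold change above 0, both at an unadjusted p under 0.05 by edgeR. The 6 platelet markers took 0.0196% to 0.0258% and 0.0112% to 0.0373%. The part of the granulocyte, proliferation and other markers in the results for glycolysis genes was not tested. In such bulk samples a change in the mix of cells and a change of RNA per cell cannot be told apart.

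The sequence before the start of 4 of the genes is shown, since most of the 10 were higher in the same ORP4L KI libraries and the motif ACGTG, the core of the hypoxia response element bound by HIF-1, was looked for in their promoters. Each line holds the 250 bases before the annotated start in RefSeq on GRCm38.p6, the assembly that mm10 names, 5′ to 3′ on the strand of the gene, with matches to ACGTG on either strand in capitals (CACGT is the same motif on the other strand). Slc2a1 is the transporter, Pgk1 had the largest fold change of the 10, Ldha was the one gene with CACGTG, and Pfkl had the smallest fold change.
Slc2a1: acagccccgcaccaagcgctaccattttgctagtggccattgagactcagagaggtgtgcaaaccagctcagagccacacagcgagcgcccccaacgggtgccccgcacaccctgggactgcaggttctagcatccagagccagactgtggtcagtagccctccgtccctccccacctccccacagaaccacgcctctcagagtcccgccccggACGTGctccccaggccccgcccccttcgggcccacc
Pgk1: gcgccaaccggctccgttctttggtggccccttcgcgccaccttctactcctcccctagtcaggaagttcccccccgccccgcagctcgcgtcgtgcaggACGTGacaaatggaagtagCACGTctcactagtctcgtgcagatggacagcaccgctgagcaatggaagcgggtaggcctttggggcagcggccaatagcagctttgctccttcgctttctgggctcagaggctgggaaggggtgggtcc
Ldha: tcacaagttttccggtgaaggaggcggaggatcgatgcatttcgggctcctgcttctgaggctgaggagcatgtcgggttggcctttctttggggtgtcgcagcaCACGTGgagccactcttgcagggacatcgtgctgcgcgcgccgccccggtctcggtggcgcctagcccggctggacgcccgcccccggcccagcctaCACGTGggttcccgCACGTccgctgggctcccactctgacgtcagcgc
Pfkl: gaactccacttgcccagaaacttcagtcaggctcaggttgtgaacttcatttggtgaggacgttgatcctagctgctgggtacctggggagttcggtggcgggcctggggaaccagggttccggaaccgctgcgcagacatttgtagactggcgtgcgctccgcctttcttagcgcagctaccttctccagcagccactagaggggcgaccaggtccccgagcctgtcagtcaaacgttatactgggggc
The Slc2a1 stretch lies at chr4:119108495-119108744 on the plus strand and holds 1 match, whose first base is at -36 from the start. The Pgk1 stretch, at chrX:106186850-106187099 on the plus strand, holds 2 matches in opposite directions at -150 and -131. The Ldha stretch, at chr7:46845554-46845803 on the plus strand, holds matches at 3 places, and 2 of these are the palindrome CACGTG, the E-box read by MYC and other factors, which contains ACGTG on both strands. The other RefSeq window of Ldha, at chr7:46846832-46847131, holds no match. The Pfkl stretch, at chr10:78009808-78010057 on the minus strand, holds none. RefSeq gives 17 windows of 300 bases (250 before and 50 after the start) for the 10 genes, and 9 windows of 8 genes held ACGTG. Of these windows 2 are of Aldoa, overlap and hold the same match. Over all 32851 mouse windows 19.6% held ACGTG, and so did 3372 of the 13463 windows of genes tested here. CACGTG was in 1 of the 17 windows, against 7.15% of all windows and 9.78% of windows of genes tested. These shares are per window and not per gene. The exceptions without ACGTG were Pfkl and Eno1. A match describes letters in a window and not a bound site.

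The comparison of ORP4L KI with WT asked whether the RNA of the pathway differed between T-cells with and without ORP4L. All 10 genes had a higher mean in ORP4L KI, with log2 fold changes from 0.12 for Pfkl to 0.88 for Pgk1 and a median of 0.62, against a median of 0.01 over all genes tested. None of the 10 passed edgeR's quasi-likelihood test at an adjusted p under 0.05, and their adjusted p ran from 0.254 for Slc2a1 to 0.841 for Pfkl. That line was passed by 3 of 13462 genes (0.0223%). None of the 10 passed the second call rule, an unadjusted p under 0.01 with a log2 fold change over 1 in size, which 2.38% of all genes tested passed as higher and 2.30% as lower. At an unadjusted p under 0.05, 5 of 10 were higher (Slc2a1, Aldoa, Gapdh, Pgk1 and Pkm) and 0 lower, beside 6.85% of all genes higher and 6.86% lower. A log2 fold change above 0 was found for 51.5% of all genes. With total counts in place of TMM scaling, the share of higher genes among those past the second rule went from 50.8% to 40.3%, the median of all genes shifted by -0.14, and Pfkl turned to -0.02. CPM, counts scaled to library size and by TMM, are used in the next paragraphs, values of replicates are given in their order, and errors are SD with n = 3 for WT and n = 4 for ORP4L KI.

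**Figure D1:**
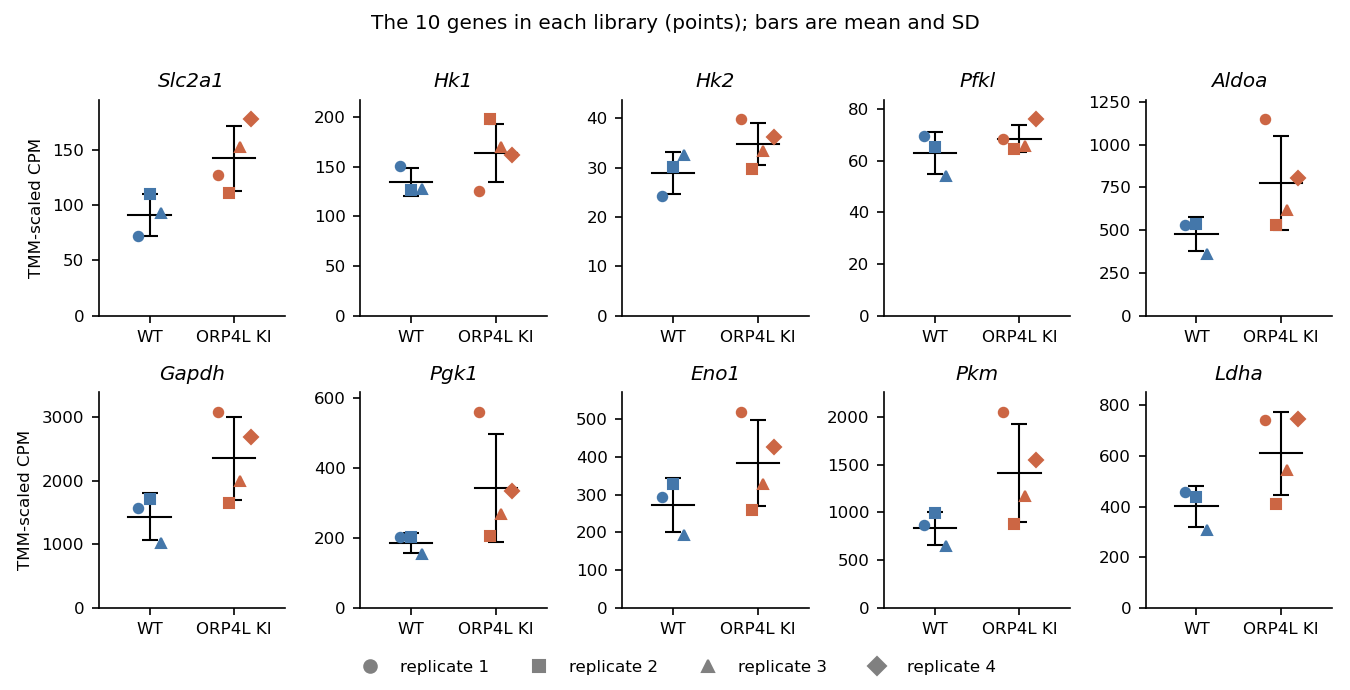
TMM-scaled CPM (y axis, linear from 0) of the 10 genes in 3 WT (blue) and 4 ORP4L KI (orange) libraries, with 1 point per library and its shape giving the replicate number. Horizontal lines and bars are the mean and SD. Replicate 2 of ORP4L KI sits at or near the WT points in 9 of the 10 panels, the exception being Hk1.

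Glucose entry was represented by Slc2a1. It was at 72.1, 110.1 and 92.6 CPM in WT (91.6 ± 19.0) and at 128, 111, 153 and 178 CPM in ORP4L KI (143 ± 29.2). The groups did not overlap, though ORP4L KI replicate 2 lay just above WT replicate 2. The fitted difference was 1.56-fold (log2 0.64, SE 0.23, p = 0.0220, adjusted p = 0.254 by edgeR), and the exact permutation test over the 35 assignments of libraries gave p = 0.0571, where the smallest p possible is 0.0286. On the deposited RPKM scale, which uses the total of each library without TMM, ORP4L KI replicate 1 at 41.5 was below WT replicate 2 at 42.7 and the groups overlapped. Slc2a1 and Pgk1 were the 2 of the 10 genes whose ORP4L KI libraries were all above WT in CPM, a pattern seen in 6.43% of all genes tested, and 0 of 10 had all ORP4L KI libraries below WT, beside 7.38% of all genes.

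Hk1, Hk2 and Pfkl, of the regulated early steps of hexokinase and phosphofructokinase, had small differences. Another hexokinase, Hk3, had a larger one (log2 1.90, SE 0.53 by edgeR) and is described further below. Hk1, the widely expressed hexokinase, was at 151, 126 and 127 CPM in WT and at 126, 198, 170.0 and 162 CPM in ORP4L KI. Its lowest and highest values of all 7 libraries were both in ORP4L KI, and the difference was 1.22-fold (log2 0.28, SE 0.20, p = 0.202 by edgeR, exact permutation p = 0.200). Hk2, the hexokinase induced in activated cells, was at 24.3, 30.1 and 32.7 CPM in WT and at 39.8, 29.7, 33.5 and 36.1 CPM in ORP4L KI, with overlapping groups and a small difference (log2 0.26, SE 0.19, p = 0.208 by edgeR, exact permutation p = 0.143). Pfkl, the liver-type phosphofructokinase, which is also made in blood cells, was at 69.5, 65.3 and 54.1 CPM in WT and at 68.2, 64.5, 65.5 and 76.0 CPM in ORP4L KI. Of its ORP4L KI libraries, replicate 4 alone was above all WT libraries, and the difference was 1.09-fold (log2 0.12, SE 0.18, p = 0.501 by edgeR, exact permutation p = 0.429).

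The enzymes from aldolase to phosphoglycerate kinase had larger differences and a wide spread within ORP4L KI. Aldoa, which cleaves fructose bisphosphate into triose phosphates, was at 529, 536 and 361 CPM in WT (475 ± 99.2) and at 1147, 532, 617 and 802 CPM in ORP4L KI (774 ± 273). Replicate 2 of ORP4L KI lay between the WT values, and the difference was 1.63-fold (log2 0.70, SE 0.30, p = 0.0450 by edgeR, exact permutation p = 0.0857). Gapdh, the dehydrogenase that makes NADH and is often used as a reference gene, was at 1566, 1716 and 1018 CPM in WT (1434 ± 367) and at 3083, 1653, 1990.5 and 2683 CPM in ORP4L KI (2352 ± 649). Its WT libraries overlapped with ORP4L KI replicate 2 alone, and the difference was 1.64-fold (log2 0.71, SE 0.30, p = 0.0411 by edgeR, exact permutation p = 0.0857). Pgk1, the first enzyme of the pathway to make ATP, was at 202, 202 and 153 CPM in WT (186 ± 28.0) and at 561, 205, 268 and 335 CPM in ORP4L KI (342 ± 155). All ORP4L KI libraries were above all WT libraries, with replicate 2 by a small margin, and the difference was 1.84-fold (log2 0.88, SE 0.34, p = 0.0264, adjusted p = 0.281, exact permutation p = 0.0571). Without ORP4L KI replicate 2 the log2 fold change of Pgk1 was 1.05 and it passed the second call rule, with an adjusted p of 0.108, while without ORP4L KI replicate 1 it was 0.54. On the RPKM scale Aldoa, Gapdh and Pgk1 were the 3 genes of the 10 whose ORP4L KI libraries were all above WT, a pattern of 4.58% of all genes tested on that scale.

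The last steps were also highest in ORP4L KI replicates 1 and 4. Eno1, which makes phosphoenolpyruvate, was at 294, 329 and 192 CPM in WT and at 519, 259, 329 and 426 CPM in ORP4L KI, and the groups overlapped (log2 0.50, SE 0.29, p = 0.1229 by edgeR, exact permutation p = 0.229). Pkm, the pyruvate kinase of muscle and of most dividing cells, was at 863, 992 and 647 CPM in WT (834 ± 174) and at 2053, 874, 1168 and 1547 CPM in ORP4L KI (1411 ± 509.5). Replicate 2 of ORP4L KI was below WT replicate 2, and the difference was 1.69-fold (log2 0.76, SE 0.32, p = 0.0410 by edgeR, exact permutation p = 0.114). The splice variants of Pkm were merged by the authors, so its M1 and M2 forms could not be compared. Ldha, which makes lactate, was at 458, 438 and 307 CPM in WT (401 ± 82.0) and at 741, 408, 543 and 746 CPM in ORP4L KI (610 ± 164), with overlap at replicate 2 (log2 0.60, SE 0.28, p = 0.0544 by edgeR, exact permutation p = 0.143).

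Counts of genes with near-identical copies depend on how reads that fit several genes were assigned, which is not given in the sources used here. Of all 50-base stretches of GENCODE M21 coding transcripts, 48.4% of those of Eno1 also occur in Eno1b and 46.5% of those of Gapdh in Gm12070. Eno1b was at 237, 275 and 211 CPM in WT and at 476, 268, 283 and 333 CPM in ORP4L KI, near the level of Eno1, whereas Gm12070 had 25 to 34 counts in WT libraries and 38 to 87 in ORP4L KI. With the counts of such copies summed, a comparison that was added later with the data known, Eno1 had a log2 fold change of 0.50 (SE 0.27) and Gapdh of 0.71. For Pgk1 68.0% and for Pkm 23.7% of stretches occur in other annotated genes, but in none of the genes listed here. Slc2a1, Hk1 and Hk2 had no shared stretch.

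**Figure D2:**
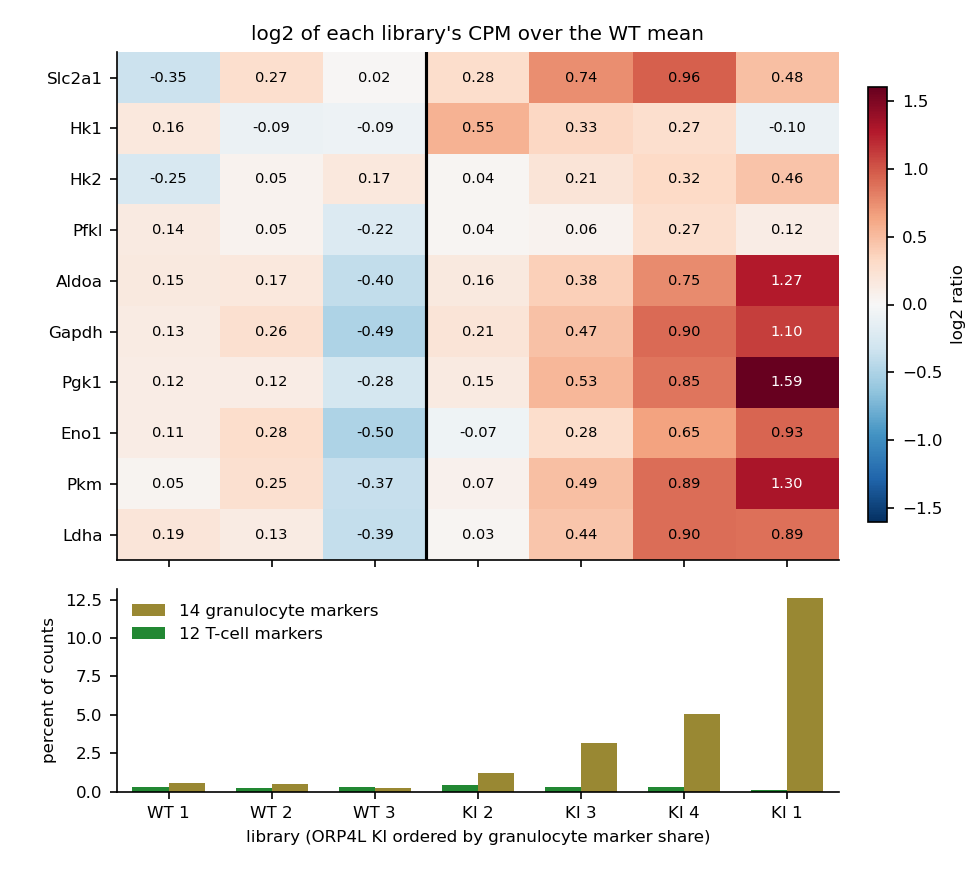
Upper panel, log2 of the CPM of each library over the WT mean of that gene (colour, value printed in the cell). Lower panel, percent of all counts in the 14 granulocyte and the 12 T-cell markers. Libraries are columns, with ORP4L KI ordered by granulocyte marker share. Pgk1 goes from 0.15 in ORP4L KI replicate 2 to 1.59 in replicate 1, and Hk1 from 0.55 to -0.10.

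Within a library most of the 10 genes deviated in the same direction. Taken per library, their median log2 ratio to the WT mean came to 0.12, 0.15 and -0.32 for the WT replicates in order. The ORP4L KI libraries gave 0.91, 0.11, 0.41 and 0.80, so ORP4L KI replicate 2 lay at the level of WT replicates 1 and 2. WT replicate 3 was the lowest of all 7 libraries for 7 of the 10 genes, beside 21.4% of all genes tested outside the granulocyte markers, and ORP4L KI replicate 2 was the lowest of its group for 9 of 10, beside 33.3%. The order of the ORP4L KI libraries by granulocyte marker share (replicate 1, 4, 3, 2) was also their order for Hk2, Aldoa, Gapdh, Pgk1, Eno1 and Pkm, 6 of 10 genes, beside 16.6% of all genes tested outside those markers. Slc2a1, Pfkl and Ldha had replicate 4 as the highest, and Hk1 had the reverse of that order, as 13.6% of all genes did. These orders were looked at after the values were seen. Without ORP4L KI replicate 1, which had the highest granulocyte share, all 10 log2 fold changes stayed above 0 with a median of 0.47, and 2 were past an unadjusted p of 0.05 (Slc2a1 and Pgk1). Together the 10 genes took 0.458%, 0.454% and 0.329% of all counts in WT, and 0.707%, 0.472%, 0.532% and 0.644% in ORP4L KI.

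Levels of different genes were compared per transcript length, by the deposited RPKM. Gapdh was the highest with a mean of 1496 RPKM over the 7 libraries, followed by Pkm at 463, Aldoa at 395, Ldha at 313, Eno1 at 184 and Pgk1 at 145 RPKM. Slc2a1 at 46.3, Hk1 at 36.7, Pfkl at 16.2 and Hk2 at 5.82 RPKM made up the lower end. Among the 10 genes, the transporter and those of the regulated early steps were thus all below the later enzymes. Each gene was above the next in this order in all 7 libraries, except for Eno1 above Pgk1 in 6 and Slc2a1 above Hk1 in 5. These 2 pairs of neighbours did not keep their order in every library, and the order was not tested. From the lowest to the highest library, the RPKM level ranged over 1.32-fold for Pfkl and 1.37-fold for Hk2, and over 2.77-fold for Pgk1.

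**Figure D3:**
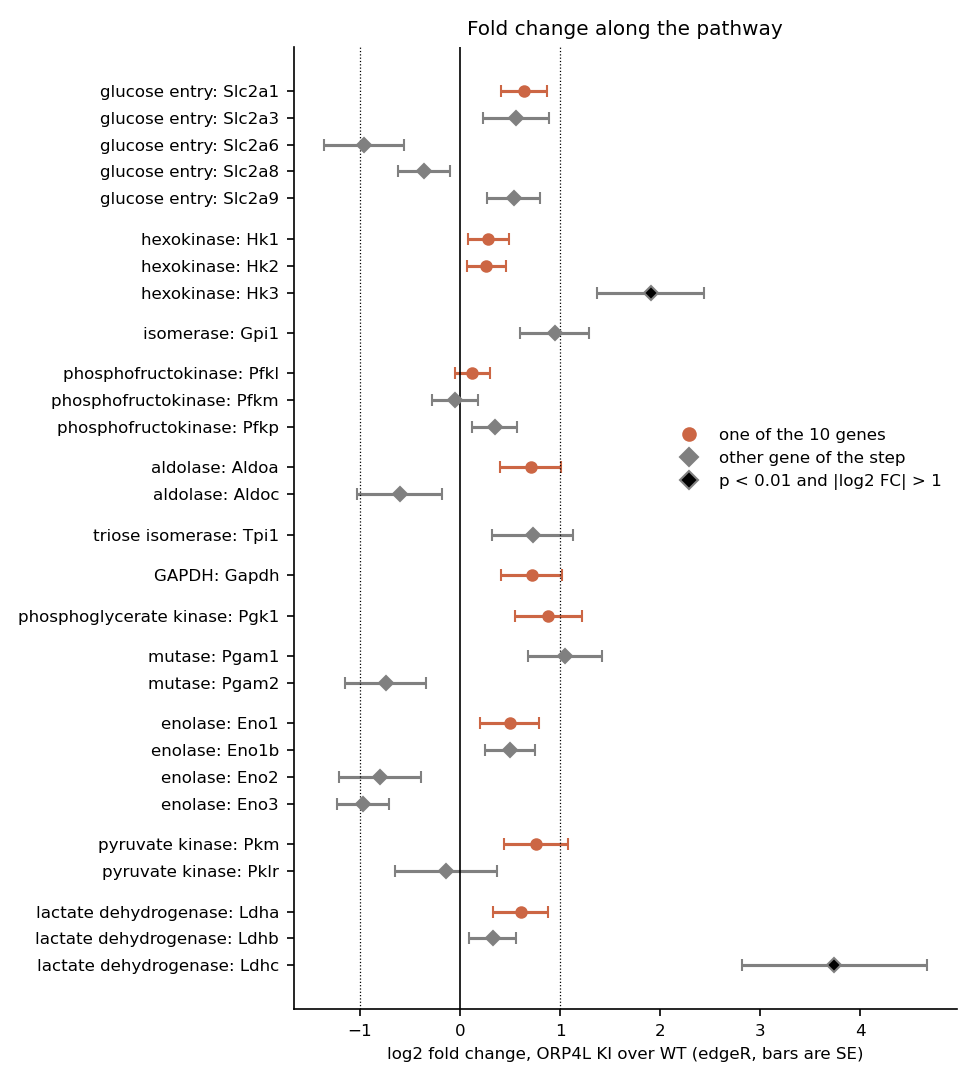
Log2 fold change of ORP4L KI over WT (x axis, edgeR, bars are SE) for the 10 genes (orange circles) and the other tested genes of each step (grey diamonds), from glucose entry at the top to lactate at the bottom. Dotted lines mark a log2 fold change of 1 in size, and the 2 diamonds filled in black, Hk3 and Ldhc, also passed an unadjusted p of 0.01. The 10 genes lie between 0.12 and 0.88.

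Other glycolysis enzymes, of the same steps and of the steps without one of the 10 genes, did not share one direction. Of 14 such enzymes tested, 8 had a log2 fold change above 0 and 6 below (median 0.34). By the second call rule 2 rose and 0 fell, beside 2.38% and 2.30% of all genes tested. One of the 2 was Hk3, a hexokinase of myeloid cells. It was at 50.7, 73.3 and 43.5 CPM in WT and at 399.6, 67.5, 140.4 and 228 CPM in ORP4L KI (log2 1.90, SE 0.53, p = 0.00547 by edgeR, adjusted p = 0.143, exact permutation p = 0.0857), so replicate 2 lay within the WT range and the others above it. The other was Ldhc, the testis form of lactate dehydrogenase, with raw counts of 9, 2 and 2 in WT against 125, 10, 46 and 72 in ORP4L KI, a ratio of pooled count shares of 11.9 with a counting interval of 6.85 to 22.7 (95%, exact binomial, counting error only). WT replicate 1 held 9 of its 13 WT reads, and without that library the ratio was 25.6 (interval 9.86 to 94.5). On the other side, ORP4L KI replicate 1 held 125 of the 253 ORP4L KI reads of Ldhc. The ratio without ORP4L KI replicate 1 was not computed. With 1 library left out, Hk3 no longer passed the second rule without ORP4L KI replicate 4 (log2 1.86), WT replicate 1 (1.84) or WT replicate 3 (1.75). Ldhc no longer passed it without WT replicate 2 (log2 3.39) or WT replicate 3 (3.45), and it fell under the filter on low counts without ORP4L KI replicate 1, 3 or 4.

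Below 0 the most distant enzyme was Eno3, the muscle enolase, at 55.0, 54.0 and 29.8 CPM in WT and at 21.0, 19.2, 24.9 and 29.7 CPM in ORP4L KI. Its groups did not overlap, but at a log2 of -0.97 (SE 0.26, p = 0.00453 by edgeR, adjusted p = 0.133, exact permutation p = 0.0286) it stayed just inside the fold limit. That call depended on the setting. Eno3 was lower by the second rule when scaled by total counts (log2 -1.11) or the upper quartile (-1.03). The same held without ORP4L KI replicate 4 (-1.09) or WT replicate 3 (-1.20). An adjusted p under 0.05 was reached in DESeq2 (Wald, 0.0290) and, within edgeR, under the likelihood ratio (0.0261) and exact (0.0273) tests. Under the remaining settings Eno3 was not called. Eno2, the neuronal enolase, was at -0.80, Aldoc, the brain aldolase, at -0.60, Pklr, the pyruvate kinase of liver and red cells, at -0.14, and Pfkm, the muscle phosphofructokinase, at -0.05 on the log2 fold change scale, none past either rule. Pfkp, the platelet-type phosphofructokinase, was at 0.35 and Ldhb, the heart-type lactate dehydrogenase, at 0.33. Hkdc1, Gapdhs and Pgk2 were too low to be tested.

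The 3 steps without one of the 10 genes are carried by Gpi1, Tpi1 and Pgam1, which were chosen after their values were seen. Gpi1, glucose 6-phosphate isomerase, was at 606, 573 and 446 CPM in WT and at 1621, 573, 834 and 1142 CPM in ORP4L KI (log2 0.95, SE 0.35, p = 0.0226 by edgeR, exact permutation p = 0.114). Pgam1, phosphoglycerate mutase, was at 119, 123 and 87.0 CPM in WT and at 405, 143, 165 and 194 CPM in ORP4L KI (log2 1.05, SE 0.37, p = 0.0182 by edgeR, exact permutation p = 0.0571), with no overlap between the groups. Tpi1, triose phosphate isomerase, had a log2 fold change of 0.73 (SE 0.40, p = 0.105 by edgeR, exact permutation p = 0.314). In all 3 the ORP4L KI libraries stood in the order of the granulocyte marker share, as in Aldoa or Pgk1. With these 3 included, 6 of the 14 other glycolysis enzymes tested had that order. So did 16.6% of all genes tested outside the granulocyte markers.

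Among 7 other glucose and lactate transporters tested, 0 passed either call rule and their median log2 fold change was 0.33. Slc2a3, which encodes GLUT3, was at 97.9, 146 and 149 CPM in WT and at 285, 99.8, 190.2 and 196 CPM in ORP4L KI (log2 0.56, SE 0.33, p = 0.125 by edgeR, exact permutation p = 0.286). Slc2a6, which encodes GLUT6, was at 41.9, 102 and 46.1 CPM in WT and at 45.5, 16.0, 29.9 and 38.7 CPM in ORP4L KI (log2 -0.96, SE 0.40, p = 0.0389 by edgeR, exact permutation p = 0.114), with overlapping groups. Slc2a8 was at -0.36 and Slc2a9 at 0.54 on the log2 fold change scale.

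**Figure D4:**
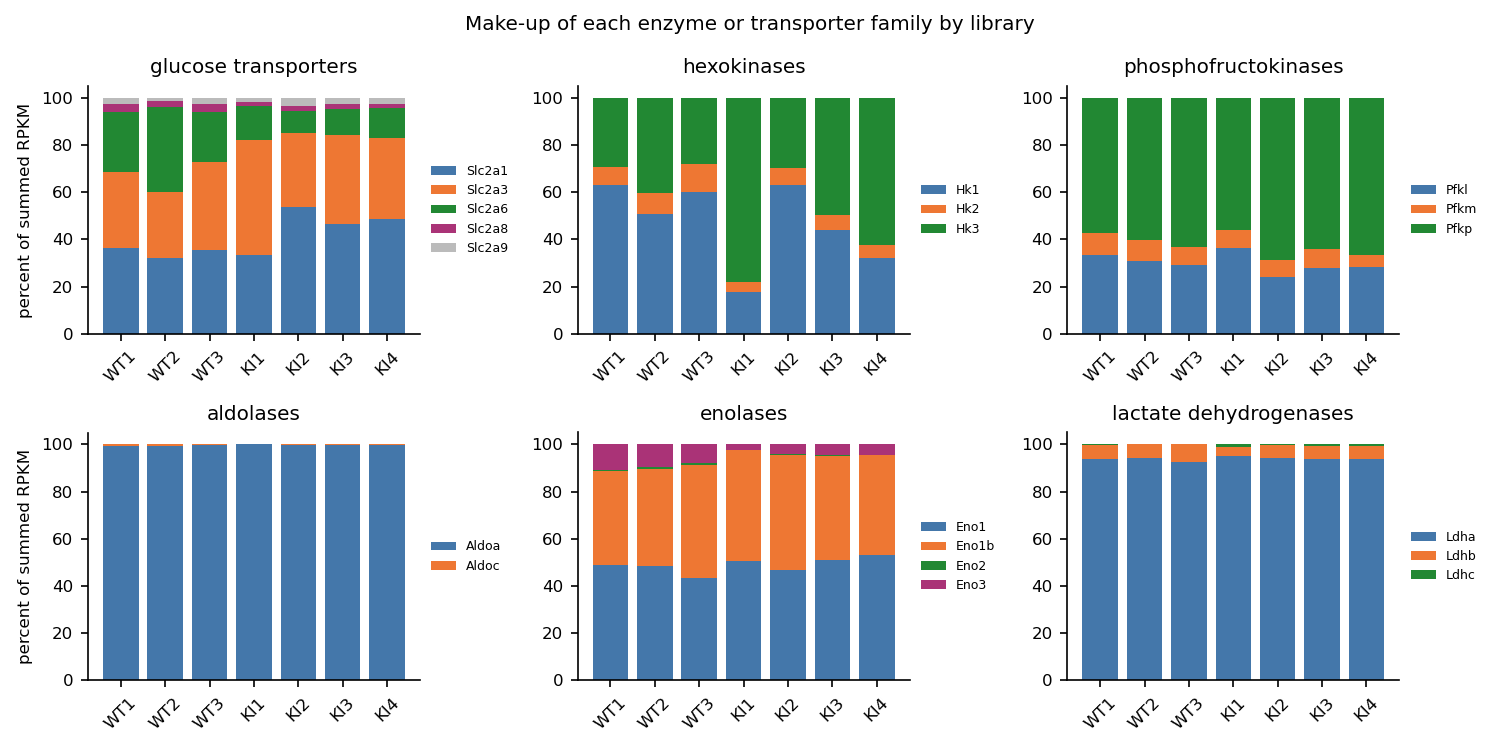
Share of each gene in the summed RPKM of its family (y axis, percent, stacked to 100) in the 7 libraries (x axis). Hk3 took 28.2% to 40.3% of the hexokinases in WT and 29.6% to 77.9% in ORP4L KI, while Ldha took 92.7% to 94.9% of its family and Aldoa 99.3% to 99.9% over the 7 libraries.

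The make-up of each enzyme family was compared within a library, where the scaling between libraries plays no part. Ratios of counts were formed for 5 pairs and tested by exact permutation, and none passed. Slc2a1 over Slc2a3 was 0.737, 0.756 and 0.623 in WT and 0.449, 1.12, 0.806 and 0.910 in ORP4L KI, with the lowest and highest values both in ORP4L KI (log2 difference 0.15, exact p = 0.714, adjusted p = 0.893). Hk2 over Hk1 was 0.161, 0.238 and 0.257 in WT and 0.316, 0.151, 0.197 and 0.223 in ORP4L KI (log2 difference -0.0033, exact p = 1). Pfkl over Pfkp was 0.591, 0.520 and 0.463 in WT and 0.655, 0.355, 0.439 and 0.433 in ORP4L KI (log2 difference -0.19, exact p = 0.457, adjusted p = 0.762). Ldha over Ldhb was 20.9, 23.3 and 17.6 in WT and 33.1, 22.4, 22.1 and 23.1 in ORP4L KI (log2 difference 0.28, exact p = 0.257, adjusted p = 0.643).

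Aldoa over Aldoc was 100.1, 81.2 and 122 in WT and 785, 159, 134 and 222 in ORP4L KI, with no overlap between the groups (log2 difference 1.31, exact p = 0.0857, adjusted p = 0.429), and it was 0.75 without ORP4L KI replicate 1. By summed RPKM, Slc2a1 made up 34.8% ± 2.15 of the 5 glucose transporters tested in WT and 45.6% ± 8.58 in ORP4L KI, and Slc2a6 27.6% ± 7.60 and 11.8% ± 2.18. Among the 3 hexokinases, Hk1 made up 58.0% ± 6.54 in WT and 39.3% ± 19.1 in ORP4L KI, where replicate 2 at 63.2% was level with the top WT value. Pfkl was 31.1% ± 2.19 and 29.1% ± 5.07 of the phosphofructokinases, behind Pfkp at 60.2% ± 3.10 and 63.7% ± 5.59. Eno3 made up 9.53% ± 1.45 of the enolases in WT and 3.92% ± 0.993 in ORP4L KI, without overlap. These shares were described and not tested.

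**Figure D5:**
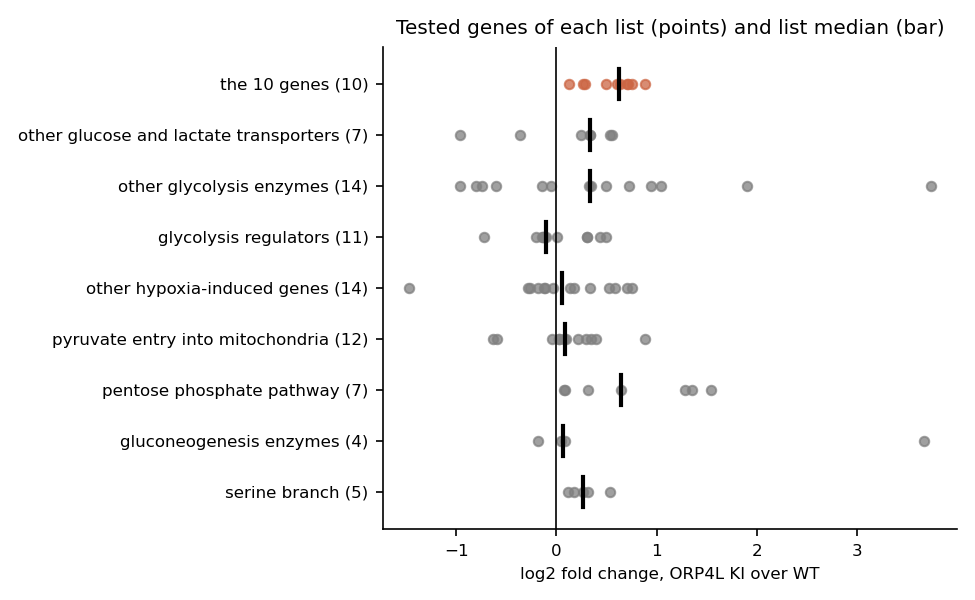
Log2 fold change of ORP4L KI over WT (x axis) of every tested gene of each list (points, number tested in brackets) with the list median as a bar. The medians are 0.62 for the 10 genes, 0.64 for the pentose phosphate pathway and -0.10 for the regulators.

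Around glycolysis, 74 genes of 8 lists were tested, and 0 passed an adjusted p of 0.05. By the second call rule 4 rose (Hk3, Ldhc, G6pdx and Fbp1) and 0 fell, beside 2.38% and 2.30% of all genes tested. The pentose phosphate pathway branches off at glucose 6-phosphate and makes NADPH and ribose. All 7 of its genes had a log2 fold change above 0 (median 0.64), and 1 rose by the second rule. It was G6pdx, the entry enzyme, at 95.8, 101 and 77.5 CPM in WT and at 474, 131, 212 and 249.9 CPM in ORP4L KI (log2 1.54, SE 0.40, p = 0.00334 by edgeR, adjusted p = 0.117, exact permutation p = 0.0571), with no overlap between the groups. For 5 of the 7 the ORP4L KI libraries stood in the order of the granulocyte marker share. That order was held by 16.6% of all genes tested outside the granulocyte markers. Of the gluconeogenesis enzymes 4 were tested and 1 rose, Fbp1, which reverses the phosphofructokinase step. It had 4, 0 and 2 counts in WT and 63, 11, 18 and 24 in ORP4L KI, a ratio of pooled count shares of 11.8 with a counting interval of 5.28 to 32.9. WT replicate 1 held 4 of its 6 WT reads, and without that library the ratio was 23.4 (interval 6.34 to 196). On the other side, ORP4L KI replicate 1 held 63 of the 116 ORP4L KI reads of Fbp1. Without ORP4L KI replicate 1 the log2 fold change of Fbp1 by edgeR went from 3.67 to 2.93. G6pdx no longer passed the second rule without WT replicate 1 (log2 1.58) or WT replicate 3 (1.44), and Fbp1 without WT replicate 2 (3.09) or WT replicate 3 (3.72).

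Genes that set the rate of glycolysis or are induced with it in low oxygen had medians near that of all genes tested. Of 11 regulators, among them the kinases that make fructose 2,6-bisphosphate and the factors Hif1a and Myc, 5 had a log2 fold change above 0 and 6 below (median -0.10). Of 14 other hypoxia-induced genes 7 were above 0 and 7 below (median 0.05). By either rule 0 of these 25 genes were called. At an unadjusted p under 0.05, 0 regulators were higher and 1 lower, and 3 hypoxia-induced genes were higher and 1 lower. Of all genes tested, 6.85% were higher and 6.86% lower by that limit.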

How the data were processed

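RNA sequencing of T-cells from 3 WT and 4 ORP4L KI mice was used. The authors trimmed adapters, mapped reads with FANSe3 to a mouse mRNA database (mm10 per the labels), merged splice variants, and deposited raw read counts per gene. The authors also deposited RPKM per gene, based on its longest transcript, and the counts listed add up to 99.8% to 99.9% of the total these values imply. FANSe3's version and the treatment of reads that fit several genes are not given in the sources used here. RPKM served for levels between genes and was not used for tests across genes.

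Samples were grouped by genotype in the labels, and p-values measure the spread between mice. No pair of libraries agreed within sampling noise. Counts were tested in R 4.3.3 with edgeR 4.0.16 (filterByExpr, at least 10 counts in enough libraries and 15 in all; TMM scaling; quasi-likelihood test; Benjamini-Hochberg adjustment over 13462 genes). The standard error is the log2 fold change divided by the square root of F. Calls were made at an adjusted p under 0.05, or at an unadjusted p under 0.01 with a log2 fold change over 1 in size. Single genes and 5 ratios of counts were compared by two-sided exact permutation of 35 assignments, on log2(CPM + 0.5) and log2 ratios, with ratios adjusted over the 5. A gene at 0 is bounded at 3 counts of the library, for counting error only. On simulated counts of 13304 genes with 196 tested genes changed by a log2 of 2, an adjusted p under 0.05 recovered 160 with 8 false calls. That change is larger than the fold change of any of the 10 genes, and no difference in the mix of cells was simulated. The recovery of changes as small as theirs was not measured. The alternatives were DESeq2 1.42.0 (size factors, Wald test), other scalings, filters and edgeR tests, the replicate number as a block, each replicate left out and near-identical copies summed, the last added after the data were seen.

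The 10 genes and all lists were chosen with earlier results of these data known. Named were the 10 genes, genes of the same steps, list genes past either rule and genes of the ratios. Gpi1, Tpi1 and Pgam1 were chosen after their values were seen. Some genes of these steps are not reported here. Promoter windows are RefSeq's, matched by symbol for 10622 of the genes tested. Python 3.11.15 was used for tables (pandas 2.3.3, NumPy 2.4.6), intervals (SciPy 1.17.1) and plots (Matplotlib 3.10.9).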

Additional observations from a re-analysis of the deposited data

How the results depend on the processing

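No alternative called any of the 10 genes at an adjusted p under 0.05, and the lowest adjusted p was 0.108 (Pgk1 without ORP4L KI replicate 2). By the second call rule 0 of 10 were called under each setting tried, except 1 without ORP4L KI replicate 2 (range 0 to 1 with each replicate left out). Of 170 log2 fold changes of the 10 genes under 17 other settings, 169 were above 0, the exception being Pfkl at -0.024 with total counts alone. Genes of the 10 past an unadjusted p of 0.05 numbered 5, and 2 when scaled by the upper quartile, 2 when scaled by total counts and 0 to 7 with a replicate left out (7 without ORP4L KI replicate 2, 2 without replicate 1, 1 without ORP4L KI replicate 4 or WT replicate 3, 0 without WT replicate 1).

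Of all genes, 3 passed the adjusted p, and 176 did without a filter, 44 when scaled by the upper quartile, 113 when scaled by total counts, 0 with 10 counts asked of every library, 784 by DESeq2's Wald test, 706 by the likelihood ratio test, 682 by the exact test and 0 to 342 with a replicate left out (342 without ORP4L KI replicate 2, 1 without replicate 3, and 0 without ORP4L KI replicate 4 or any WT replicate). The second rule was passed by 630 genes, and by 328 to 805 with a replicate left out (328 without WT replicate 2). Pathway genes outside the 10 called by either rule numbered 4, and 9 by the Wald test, 9 by the likelihood ratio test, 9 by the exact test, 7 when scaled by total counts, 2 with 10 counts asked of every library and 1 to 8 with a replicate left out (8 without ORP4L KI replicate 2, 2 without WT replicate 1 or 2, 1 without WT replicate 3). The cause was not tested.

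Deviations of same-numbered WT and ORP4L KI libraries from their group means had correlations of 0.17, -0.58 and 0.03 for replicates 1, 2 and 3. Whether the numbers pair the mice is not given in the sources used here. With groups of 3 and 4 libraries these correlations cannot decide it. With the replicate block, for which ORP4L KI replicate 4 has no partner, 48 genes passed the adjusted p, 0 of the 10 genes passed an unadjusted p of 0.05 and 2 pathway genes were called. The same 6 libraries without the block gave 0, 1 and 3. Pfkm reversed to 0.034 with the replicate block and 0.033 without it in these 6 libraries (-0.18 to 0.044 with a replicate left out), and Pklr to 0.30 and 0.14 (-0.52 to 0.14). Apart from these and Pfkl, the log2 fold changes of the 30 genes kept their direction. Leaving out a replicate moved no log2 difference of the 5 ratios by more than the larger of the SDs of the 2 groups. Slc2a1 over Slc2a3 turned to -0.025 without ORP4L KI replicate 2, and Hk2 over Hk1, near 0 throughout, ran from -0.21 to 0.17.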

Other observations

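The entry of pyruvate into mitochondria and the branch from glycolysis to serine were measured beside the pathway. Of 12 genes of pyruvate entry tested, 9 had a log2 fold change above 0 and 3 below (median 0.09), and 0 passed either call rule. Pdk2, a kinase that switches off pyruvate dehydrogenase, was at 11.6, 10.8 and 8.22 CPM in WT and at 5.78, 7.67, 7.12 and 6.53 CPM in ORP4L KI, without overlap (log2 -0.59, SE 0.23, p = 0.0326 by edgeR, adjusted p = 0.304, exact permutation p = 0.0286), and was named after its values were seen. Of the 5 serine genes all had a log2 fold change above 0 (median 0.26), and none was past an unadjusted p of 0.05.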
